A study of Homo sapiens with 8 samples.

Results

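Lipid-loaded HepG2 cells given linalool were compared with lipid-loaded cells given no compound. The comparison rests on 5 of the 8 arrays of the series, chosen by their titles: 2 arrays of lipid-loaded cells given linalool and 3 arrays of lipid-loaded cells without a compound. HepG2 is an established human hepatoblastoma cell line that serves as a model of hepatocytes, and linalool is the fragrant monoterpene alcohol of lavender and coriander oils. In the linalool group, cells grown in medium with serum were loaded with 400 µM oleate for 24 h, washed, and given 1 mM linalool in medium without serum for another 24 h. The lipid-loaded group had the same loading, wash and serum-free time without linalool. Another label names palmitate beside oleate, and it remains unclear which fatty acids the cells received. The other group of the series, 3 arrays of loaded cells given 100 µM fenofibrate, entered the fit and is set beside linalool only where named. Each array paired 1 treated sample, labelled with Cy3, with untreated HepG2 cells, labelled with Cy5, and no array had the dyes swapped. Whether the untreated control was also starved of serum is not stated.

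Hepatocytes that take up oleate store it as triglyceride in lipid droplets, which are coated by perilipins, and export part of it in lipoproteins built on apolipoproteins. Fatty acids also activate the nuclear receptor PPARα, which switches on genes of fatty acid transport and oxidation, and linalool has been described as a ligand of this receptor. HepG2 cells keep much of this hepatocyte programme while they also divide, so their transcriptome holds lipid, secretory and cell cycle genes side by side.

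Every value below is a deposited log2 ratio of the 2 channels of an array, and a difference is the mean of the linalool arrays minus the mean of the lipid-loaded arrays. Which channel was the numerator is not given in the sources used here. Signs are therefore as deposited: a negative difference means a lower deposited ratio with linalool, and neither "induced" nor "repressed" can be read from it. The files hold ratios only, so no gene has a level, and the hepatocyte label could not be checked against the levels of its markers. Of 18821 named genes, 18819 were tested. The arrays of a group are labelled biological replicates without mention of independent cultures, so p-values reflect the spread of these arrays alone, and that spread may be technical. An exact two-sided permutation test of 2 arrays against 3 cannot go below p = 0.2, so the test used was limma's moderated fit over all genes.

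No gene passed the test. The smallest Benjamini-Hochberg adjusted p was 0.296, and 0 of 18819 genes (0%) were called at an adjusted p under 0.05, while 2176 genes (11.6%) had an unadjusted p under 0.05. Of these, 1021 (5.43% of the genes tested) had a positive and 1155 (6.14%) a negative difference. The median gene had a standard error of 0.305 and a 95% confidence interval reaching 0.668 to either side of its difference. The number of arrays limits the precision, and the differences below are descriptions of 5 arrays, none of them called.

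The arrays themselves differed in spread before any gene was considered. The interquartile range of the probe ratios was 0.625 and 0.599 on linalool arrays 1 and 2, against 1.18, 0.882 and 0.862 on lipid-loaded arrays 1, 2 and 3. Over 29187 probes that all share the untreated Cy5 channel, the linalool arrays correlated with each other at r = 0.310 and with the lipid-loaded arrays at r from 0.274 to 0.371. The lipid-loaded arrays correlated with each other at r from 0.491 to 0.580. The 2 linalool arrays thus resembled each other no more than they resembled the lipid-loaded arrays. Narrower ratios bring any gene group that lies far from 0 on the lipid-loaded arrays closer to 0 on the linalool arrays. For this reason the main gene groups are also given with all arrays scaled to equal spread, and all 32 lists are in the plot of differences by gene list. Fenofibrate replicate 3 stood apart, with r from 0.067 to 0.096 against these 5 arrays.

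**Figure D1:**
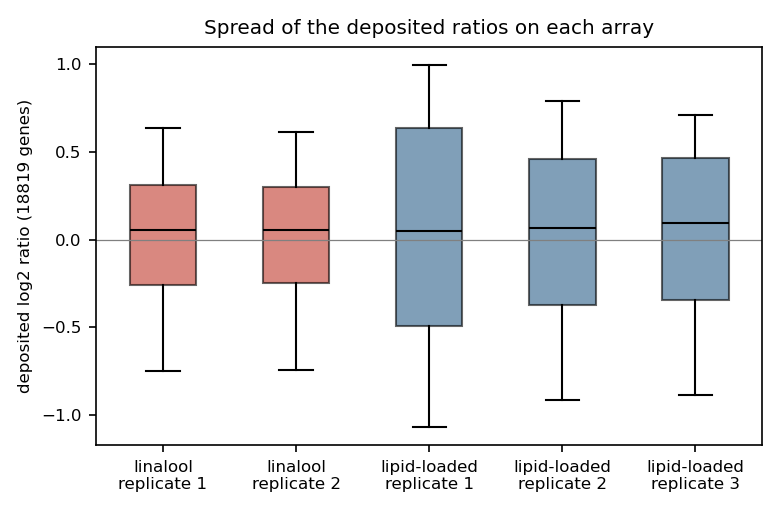
Distribution of the deposited log2 ratios of 18819 genes on the 2 linalool arrays and the 3 lipid-loaded arrays (boxes from the lower to the upper quartile, line at the median, whiskers from the 5th to the 95th percentile). The linalool boxes are narrower than all 3 lipid-loaded boxes, and the medians all lie close to 0.

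Genes of cell division carried the most negative differences of the 32 gene lists examined. Over the 35 mitosis genes the median difference was −0.76, over the 39 DNA replication genes −0.67, and over all genes tested −0.06. All 35 mitosis genes and 38 of the 39 replication genes had a negative difference, as did 55.1% of all genes. An unadjusted p under 0.05 with a negative sign was reached by 24 of 35 mitosis genes (68.6%) and 21 of 39 replication genes (53.8%), against 6.14% of all genes, and by none with a positive sign. Both linalool arrays lay below all 3 lipid-loaded arrays for 33 mitosis genes (94.3%) and 31 replication genes (79.5%), a pattern that 24.3% of all genes showed. On the arrays scaled to equal spread the medians were −0.68 and −0.54, with 18 mitosis and 17 replication genes at an unadjusted p under 0.05 and a negative sign, where 5.81% of all genes were. As deposited, these counts became 14 and 8 without linalool replicate 1 and 10 and 9 without linalool replicate 2, and 13 replication genes were left without lipid-loaded replicate 1.

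Read array by array, the median mitosis gene stood at 0.00 and −0.11 on linalool arrays 1 and 2, against 0.92, 0.69 and 0.58 on lipid-loaded arrays 1, 2 and 3. The median replication gene stood at −0.10 and −0.05 with linalool, against 0.90, 0.65 and 0.49 in lipid-loaded cells. On the linalool arrays the cell cycle genes sat near 0, while on the lipid-loaded arrays they sat above it. PLK1 encodes a kinase that drives entry into and passage through mitosis. Its deposited ratios were −0.44 and 0.02 on the linalool arrays, against 0.92, 1.09 and 0.48 on the lipid-loaded arrays, a difference of −1.04 (SE 0.29, adjusted p 0.346). BIRC5 encodes survivin, a subunit of the chromosomal passenger complex, and its 3 probes shared a sign. It had −0.37 and −0.38 with linalool, against 0.94, 0.98 and 0.29 in lipid-loaded cells (−1.11, SE 0.27). The lipid-loaded arrays spread widely for both genes, with replicate 3 the lowest, yet no linalool array reached it. NDC80, the kinetochore protein that grips spindle microtubules, was tighter, at −0.03 and −0.07 with linalool, against 0.92, 0.69 and 0.88 in lipid-loaded cells (−0.88, SE 0.24). TACC3, which stabilises spindle microtubules and is not in the mitosis list, gave −0.61 and −0.26 with linalool, against 0.78, 0.91 and 0.70 in lipid-loaded cells, and it is among the 12 genes with the smallest p and a negative sign (−1.23, SE 0.24, adjusted p 0.296). CCNB1, the mitotic cyclin, had 0.19 and 0.05 with linalool, against 1.08, 0.64 and 0.79 in lipid-loaded cells. Its groups did not overlap either, although its interval, from −1.47 to 0.04, reached past 0. That interval also holds the spread of the fenofibrate arrays, which had 0.54, 0.50 and −0.59 for CCNB1.

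Among the replication genes, TK1, the thymidine kinase that salvages deoxythymidine for DNA synthesis, had the smallest p. Its ratios were −0.54 and −0.29 on the linalool arrays, against 1.04, 1.29 and 0.55 on the lipid-loaded arrays (−1.37, SE 0.28, adjusted p 0.296). MCM7, a subunit of the replicative helicase, had −0.21 and −0.16 with linalool, against 1.02, 0.85 and 0.63 in lipid-loaded cells (−1.02, SE 0.24). GINS2, part of the complex that activates that helicase, had −0.35 and −0.18 with linalool, against 1.01, 0.74 and 0.53 in lipid-loaded cells (−1.02, SE 0.25). All 3 genes were below 0 on both linalool arrays and above 0 on all lipid-loaded arrays. PCNA, the sliding clamp of DNA polymerase, had a positive ratio on every array, at 0.24 and 0.21 with linalool, against 1.34, 0.74 and 0.77 in lipid-loaded cells (−0.73, SE 0.26).

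**Figure D2:**
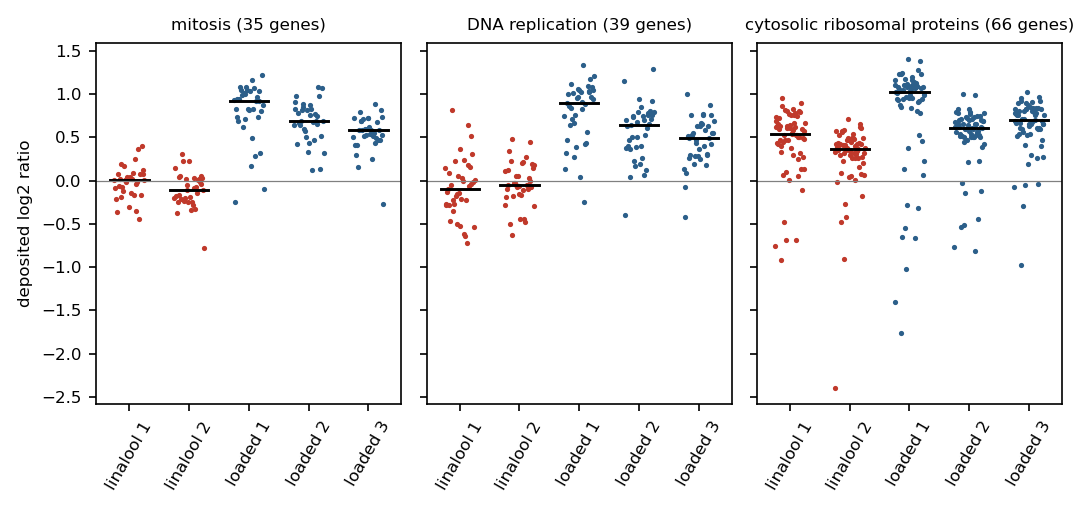
Deposited log2 ratio of each measured member of 3 gene lists on each array, with a line at the list's median (points are genes, moved sideways to show them apart). Mitosis and replication medians lie between −0.11 and 0.00 with linalool and between 0.49 and 0.92 in lipid-loaded cells, while ribosomal protein medians are above 0 on all 5 arrays.

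Mitotic genes are known for a pair of short promoter elements, the TTTGAA core of the cell cycle homology region and the CCAAT box bound by NF-Y, and 2 promoters are shown because these genes carry the most negative group difference. The stretches are the 250 bases before the transcript start in RefSeq, GRCh38.p14, given 5′ to 3′ on the gene's strand, with matches to TTTGAA and CCAAT on either strand in capitals. PLK1 lies on the plus strand at chr16:23678639-23678888 and CCNB1 on the plus strand at chr5:69166900-69167149.
PLK1: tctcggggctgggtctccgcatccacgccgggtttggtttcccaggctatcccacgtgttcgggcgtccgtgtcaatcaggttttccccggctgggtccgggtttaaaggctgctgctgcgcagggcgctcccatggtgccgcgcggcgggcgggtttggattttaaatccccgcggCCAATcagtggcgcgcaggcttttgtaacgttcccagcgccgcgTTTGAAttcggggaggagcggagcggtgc
CCNB1: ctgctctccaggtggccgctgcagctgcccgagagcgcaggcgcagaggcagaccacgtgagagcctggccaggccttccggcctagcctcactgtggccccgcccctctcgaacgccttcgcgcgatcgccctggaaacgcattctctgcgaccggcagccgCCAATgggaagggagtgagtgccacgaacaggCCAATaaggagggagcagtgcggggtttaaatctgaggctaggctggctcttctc
The PLK1 stretch holds 1 TTTGAA and 1 CCAAT, and the CCNB1 stretch holds 2 CCAAT and 0 TTTGAA. The same stretch of NDC80, which was also read and is not printed, holds 0 of either. RefSeq promoters were at hand for 29 of the 35 mitosis genes and 35 of the 39 replication genes, which have 38 and 43 promoters. TTTGAA occurred in 42.1% of the mitosis promoters and 2.33% of the replication promoters, against 13.3% of all 35116 promoters. CCAAT occurred in 76.3% and 60.5% of them, against 32% of all. Both together were found in 39.5% of mitosis promoters and 2.33% of replication promoters, against 4.69% of all. A match is a run of letters in this window and not a shown binding site.

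Genes of glycolysis and of the hypoxia response formed the next most negative list, with a median difference of −0.62 over 31 genes and −0.56 at equal spread. Of these, 15 (48.4%) had a negative difference at an unadjusted p under 0.05 and 1 (3.23%) a positive one, against 6.14% and 5.43% of all genes. Both linalool arrays lay below all 6 other arrays of the series for 16 of the 31, a place held by 6.57% of all genes. Without linalool replicate 2 the 16 genes of either sign at an unadjusted p under 0.05 became 7. SLC2A3, the glucose transporter GLUT3, had −0.65 and −0.69 on the linalool arrays, against 0.59, 1.25 and 0.24 on the lipid-loaded arrays (−1.36, SE 0.33, adjusted p 0.325). PFKFB4, whose product sets the level of an allosteric activator of glycolysis, had −0.62 and −0.84 with linalool, against 0.48, 0.31 and 0.55 in lipid-loaded cells (−1.18, SE 0.28). ALDOA, the aldolase of the glycolytic pathway, had −0.07 and −0.10 with linalool, against 0.90, 1.42 and 0.53 in lipid-loaded cells (−1.04, SE 0.29). In each of the 3 genes both linalool arrays were below 0 and close together, while the lipid-loaded arrays spread more widely for SLC2A3 and ALDOA, with array 2 the highest and array 3 the lowest. EGLN3, the oxygen-sensing prolyl hydroxylase PHD3, was the list's 1 member with a positive difference at an unadjusted p under 0.05, at 0.13 and −0.02 with linalool, against −1.0, −0.38 and −1.20 in lipid-loaded cells (0.91, SE 0.28).

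Genes that package and export triglyceride gave a mixed picture. The 24 apolipoprotein and lipoprotein genes had a median difference of −0.16, which was −0.08 at equal spread and 0.0092 with quantile normalization, and 7 of them (29.2%) had a negative difference at an unadjusted p under 0.05 and 0 a positive one, against 6.14% and 5.43% of all genes. The median was −0.091 without lipid-loaded replicate 1 and −0.27 without linalool replicate 1. APOA5, which raises the clearance of triglyceride-rich lipoproteins, had −0.42 and −0.74 on the linalool arrays, against 0.87, 0.75 and 0.48 on the lipid-loaded arrays (−1.28, SE 0.26, adjusted p 0.296), and both of its probes shared a sign. APOC3, which slows that clearance, had −0.17 and −0.97 with linalool, against 0.92, 0.70 and 0.72 in lipid-loaded cells (−1.35, SE 0.29). APOA1, which builds high-density lipoprotein particles, had 0.17 and −0.05 with linalool, against 1.11, 0.94 and 0.91 in lipid-loaded cells (−0.93, SE 0.24). These 3 neighbours of one gene cluster were thus all lower on both linalool arrays than on any lipid-loaded array, the linalool arrays being far apart for APOC3. The fourth gene of that cluster, APOA4, is outside the rule for named genes and was added after its values were seen. It had −0.37 and 0.97 with linalool, against 0.34, 0.21 and −0.33 in lipid-loaded cells, so its groups overlapped and the difference of 0.22 (SE 0.41) had the other sign. MTTP, the transfer protein that loads lipid onto apolipoprotein B, had −0.05 and −0.49 with linalool, against 0.89, 0.78 and 0.61 in lipid-loaded cells (−1.03, SE 0.26). APOB itself had 0.52 and 0.46 with linalool, against 0.87, 0.59 and 0.56 in lipid-loaded cells. Its difference of −0.18 (SE 0.27) became 0.06 at equal spread, so no direction is given for it.

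The PPARα targets and fatty acid oxidation genes had a median difference of −0.37 over 36 genes, against −0.06 for all genes, and of −0.19 at equal spread. Of the 36, 8 (22.2%) had a negative and 1 a positive difference at an unadjusted p under 0.05, against 6.14% and 5.43% of all genes, and 22 (61.1%) lay below all lipid-loaded arrays, against 24.3% of all genes. The 9 genes of either sign became 3 without lipid-loaded replicate 1, 4 without linalool replicate 1 and 3 without linalool replicate 2. Its members did not all take the same sign. PLIN2, the perilipin that coats lipid droplets in hepatocytes, had 0.01 and −0.34 on the linalool arrays, against 1.05, 0.93 and 0.86 on the lipid-loaded arrays (−1.11, SE 0.27, adjusted p 0.325). CREB3L3, a liver transcription factor of fasting and triglyceride metabolism, had 0.03 and −0.06 with linalool, against 0.94, 1.08 and 0.66 in lipid-loaded cells (−0.91, SE 0.25). FABP1, the liver fatty acid-binding protein, was counted in the list of fatty acid uptake and activation. It had 0.29 and −0.58 with linalool, against 0.91, 0.51 and 0.82 in lipid-loaded cells (−0.89, SE 0.30). In all 3 genes the groups did not overlap and the lipid-loaded ratios were all positive, while the linalool ratios lay on either side of 0, farthest apart for FABP1. PEX11A, which divides peroxisomes, had a negative difference as well (−0.85, SE 0.28), and VNN1, a pantetheinase, had a positive difference (0.73, SE 0.30).

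Other textbook targets of the receptor, and the receptor gene itself, had differences smaller than their standard errors. CPT1A, the gatekeeper of mitochondrial fatty acid oxidation, had 0.22 and 0.42 on the linalool arrays, against 0.37, 0.33 and 0.40 on the lipid-loaded arrays, and its 2 probes did not share a sign (−0.04, SE 0.26). PDK4, which turns the cell from glucose to fat oxidation, had 0.54 and −0.76 with linalool, against −0.41, −0.25 and −0.15 in lipid-loaded cells, the linalool arrays lying on either side of the lipid-loaded ones (0.16, SE 0.37). ANGPTL4, an inhibitor of lipoprotein lipase, had −0.09 and 0.11 with linalool, against −0.43, −0.19 and −0.11 in lipid-loaded cells. Its groups lay next to each other without overlapping, and the difference was 0.26 (SE 0.27) with an interval from −0.33 to 0.85. The receptor gene PPARA, measured by 4 probes that did not all share a sign, had 0.46 and 0.41 with linalool, against 0.42, 0.13 and 0.42 in lipid-loaded cells (0.11, SE 0.26, interval from −0.46 to 0.67). Intervals of this width do not show that the genes stayed level.

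**Figure D3:**
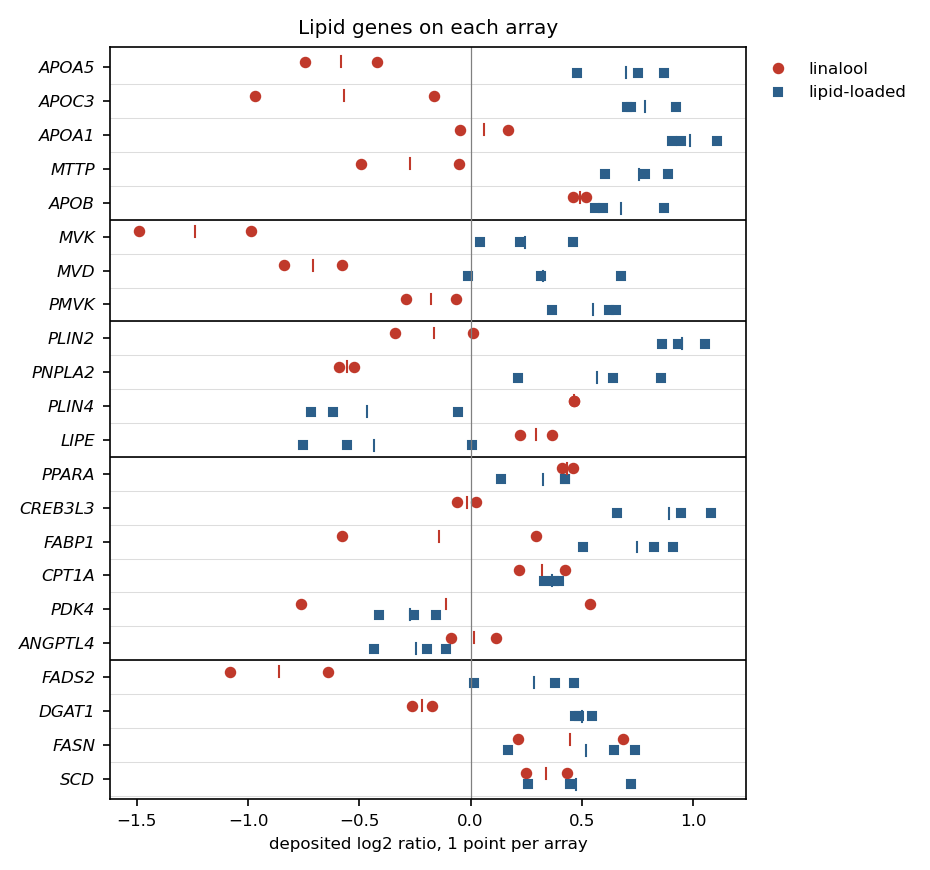
Deposited log2 ratios of lipid genes on each array, with a tick at each group's mean; red circles are the 2 linalool arrays and blue squares the 3 lipid-loaded arrays, and black lines part export, mevalonate, droplet, PPARα and synthesis genes. APOA5, MVK, PLIN2, PNPLA2, CREB3L3 and FADS2 show separated groups, while PPARA, CPT1A, PDK4, FASN and SCD overlap.

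On the lipid droplet, the genes of 2 lipases differed in sign. PNPLA2, the adipose triglyceride lipase that takes the first fatty acid off stored triglyceride, had −0.52 and −0.59 on the linalool arrays, against 0.21, 0.85 and 0.64 on the lipid-loaded arrays (−1.13, SE 0.34). LIPE, the hormone-sensitive lipase that acts after it, had 0.37 and 0.22 with linalool, against 0.01, −0.55 and −0.75 in lipid-loaded cells (0.73, SE 0.27). PLIN4, a perilipin best known from adipocytes, had 0.47 and 0.46 with linalool, against −0.62, −0.72 and −0.06 in lipid-loaded cells (0.93, SE 0.27). Linalool arrays lay outside all lipid-loaded arrays for each of the 3, below them for PNPLA2 and above them for LIPE and PLIN4. Over the 24 droplet genes 13 differences (54.2%) were negative, against 55.1% of all genes, and 11 were positive. Their median was −0.23 as deposited and −0.054 at equal spread, beside −0.05 for all genes at equal spread. At an unadjusted p under 0.05 there were 4 negative (16.7%) and 2 positive (8.33%), against 6.14% and 5.43% of all genes. These 6 became 3 without linalool replicate 1, and the list's median of −0.23 became −0.15 without lipid-loaded replicate 1.

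The 20 cholesterol synthesis and uptake genes measured had a median difference of −0.30 and of −0.16 at equal spread. Of these 20, 19 (95%) had a negative difference, against 55.1% of all genes. At an unadjusted p under 0.05, 4 (20%) were negative, against 6.14% of all genes. Among these 4 were 3 enzymes that follow each other in the mevalonate pathway. Without linalool replicate 2 these 4 genes became 2, and without lipid-loaded replicate 1 the median was −0.20. MVK, mevalonate kinase, had −1.49 and −0.99 on the linalool arrays, against 0.22, 0.46 and 0.04 on the lipid-loaded arrays (−1.48, SE 0.29, adjusted p 0.296). The next enzyme of the chain, phosphomevalonate kinase (PMVK), had −0.07 and −0.29 with linalool, against 0.65, 0.37 and 0.62 in lipid-loaded cells (−0.73, SE 0.24). MVD, the decarboxylase after it, had −0.84 and −0.58 with linalool, against 0.32, 0.67 and −0.01 in lipid-loaded cells (−1.04, SE 0.31). All 3 consecutive enzymes had both linalool arrays below 0 and below every lipid-loaded array. At equal spread the difference of MVK was −1.81.

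Of the 25 fatty acid and triglyceride synthesis genes, 21 (84%) had a negative difference, against 55.1% of all genes, around a median of −0.25. At an unadjusted p under 0.05, 5 (20%) were negative, against 6.14% of all genes. At equal spread 16 of the 25 were negative and the median was −0.20. The 5 genes became 2 without lipid-loaded replicate 1 and also with 1 linalool array left out, whichever it was. FADS2, a desaturase of polyunsaturated fatty acids, had −0.64 and −1.08 on the linalool arrays, against 0.01, 0.47 and 0.38 on the lipid-loaded arrays (−1.15, SE 0.31). DGAT1, which catalyses the last step of triglyceride synthesis, had −0.26 and −0.17 with linalool, against 0.49, 0.47 and 0.54 in lipid-loaded cells (−0.72, SE 0.24). ELOVL2, an elongase of polyunsaturated fatty acids, had a difference of −0.65 (SE 0.25). The core lipogenic genes did not separate: FASN, fatty acid synthase, had 0.21 and 0.68 with linalool, against 0.74, 0.17 and 0.64 in lipid-loaded cells, and SCD, the desaturase that makes oleate, had 0.25 and 0.43 with linalool, against 0.72, 0.26 and 0.45 in lipid-loaded cells. The difference of SREBF1, the transcription factor that drives lipogenesis, was close to 0 (SE 0.28) over 2 probes that did not share a sign.

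Hepatocyte secreted protein genes had a median difference of −0.40 over 27 genes, −0.34 at equal spread. Of them, 7 (25.9%) had a negative difference at an unadjusted p under 0.05, against 6.14% of all genes. SERPINA7, the thyroxine-binding globulin, had −0.17 and −0.23 on the linalool arrays, against 0.86, 0.64 and 0.48 on the lipid-loaded arrays (−0.86, SE 0.26). TF, transferrin, had 0.05 and −0.40 with linalool, against 0.92, 0.45 and 0.67 in lipid-loaded cells (−0.85, SE 0.27). ALB, albumin, had 0.43 and −0.17 with linalool, against 0.74, 0.42 and 0.65 in lipid-loaded cells (−0.47, SE 0.28). The linalool arrays stood apart from each other here, with replicate 2 the lower: the median member had 0.40 and −0.05 with linalool, against 0.86, 0.59 and 0.59 in lipid-loaded cells. Without linalool replicate 2 the list's median was −0.16, and without replicate 1 it was −0.66. The 7 genes became 2 without linalool replicate 2 and 4 without lipid-loaded replicate 1. Of the hepatocyte transcription factors, CEBPA (−0.89, SE 0.30) and ONECUT1 (−0.92, SE 0.26) were among 5 of 16 genes (31.25%) with a negative difference at an unadjusted p under 0.05. That share was 6.14% over all genes. Without lipid-loaded replicate 2 or 3, 3 genes of either sign were left. The list's median of −0.26 was −0.055 at equal spread, beside −0.05 for all genes, and −0.063 with quantile normalization. At equal spread 4 members had a negative difference at an unadjusted p under 0.05, where 5.81% of all genes did. The median was −0.20 without linalool replicate 1 and −0.24 without linalool replicate 2. It was −0.42 without lipid-loaded replicate 2 and −0.13 without lipid-loaded replicate 1.

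Housekeeping groups had negative medians that lay near those of all genes at equal spread. The 66 cytosolic ribosomal protein genes had a median difference of −0.32, the 44 oxidative phosphorylation genes −0.31 and the 33 proteasome genes −0.31. Of them, 60, 40 and 31 had negative differences (90.9%, 90.9% and 93.9%), against 55.1% of all genes. At equal spread these medians were −0.07, −0.05 and −0.06, beside −0.05 for all genes. An unadjusted p under 0.05 with a negative sign was reached by 0 ribosomal, 4 oxidative phosphorylation (9.09%) and 2 proteasome genes (6.06%), against 6.14% of all genes. Without lipid-loaded replicate 1 the medians of oxidative phosphorylation and the proteasome were −0.18 and −0.17, and without linalool replicate 2 that of the ribosomal proteins was −0.22. Single members went further: UQCRB, a subunit of respiratory complex III, had −0.07 and 0.73 on the linalool arrays, against −0.87, −0.72 and −1.34 on the lipid-loaded arrays (1.30, SE 0.30), whereas UQCRC1 of the same complex had −1.03 (SE 0.31). PSMB10, a catalytic subunit of the immunoproteasome, had 0.75 and 0.83 with linalool, against −1.06, −0.57 and −0.32 in lipid-loaded cells (1.44, SE 0.30), above all 6 other arrays of the series.

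**Figure D4:**
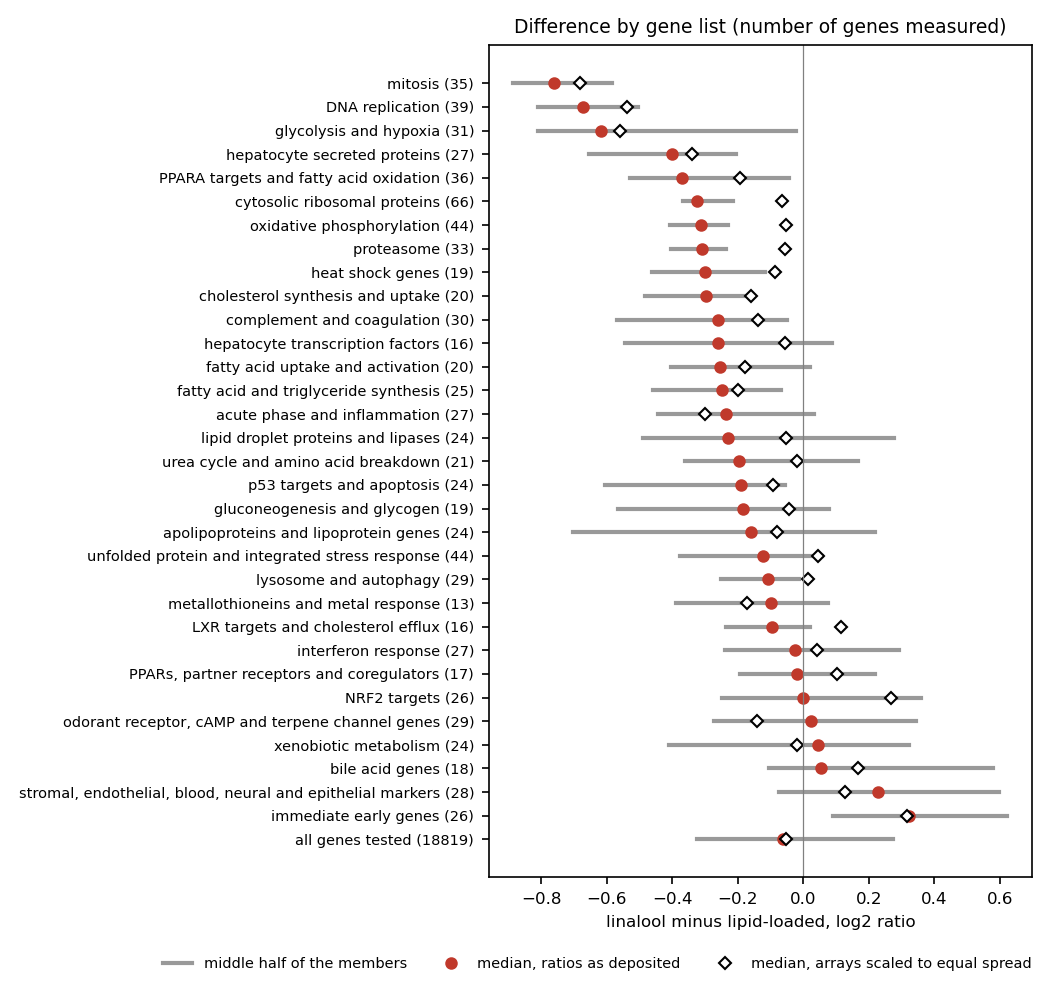
Difference linalool minus lipid-loaded, on the log2 ratio scale, for 32 gene lists and for all genes tested: grey bars run from the lower to the upper quartile of the members, red circles mark the median as deposited and open diamonds the median with arrays scaled to equal spread. Mitosis, DNA replication and glycolysis keep medians below −0.5 on both scales, whereas ribosomal, oxidative phosphorylation and proteasome medians lie near those of all genes at equal spread.

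Metal-binding genes parted into opposite signs. The 13 genes measured had a median difference of −0.10. At an unadjusted p under 0.05, 3 were positive and 3 negative (23.1% each), against 5.43% and 6.14% of all genes. With 1 array left out, the median ran from −0.017 without lipid-loaded replicate 1 to −0.38 without linalool replicate 1, and the 6 genes became 3 without linalool replicate 2. Metallothioneins bind zinc, copper and cadmium, and their genes lie together on chromosome 16. MT1B had 1.10 and 1.67 on the linalool arrays, against −0.41, −0.27 and −0.46 on the lipid-loaded arrays (1.77, SE 0.34, adjusted p 0.296). MT2A had 1.58 and 1.93 with linalool, against 1.34, 0.63 and 0.75 in lipid-loaded cells (0.85, SE 0.33). Its linalool values lay above all 6 other arrays of the series, as did those of MT1B and MT1M (1.26, SE 0.39) and of 3.75% of all genes. MT1X ran the other way, at −0.06 and 0.30 with linalool, against 1.26, 0.74 and 0.85 in lipid-loaded cells (−0.84, SE 0.27). SLC30A10, a manganese exporter, also had a negative difference (−1.16, SE 0.25). Metallothionein transcripts are nearly identical in sequence, so their probes may read each other's transcripts and the split between members is uncertain. The 2 promoters below are shown because MT1B and MT2A shared a positive difference. They are the 250 bases before the start in RefSeq, GRCh38.p14, on the plus strand at chr16:56651636-56651885 for MT1B and chr16:56608334-56608583 for MT2A. Capitals mark matches on either strand to TGCNCNC, a looser pattern than the core of the metal response element bound by MTF1. That core is TGCRCNC, with R for A or G, so some matches, such as TGCTCCC in MT1B, are not cores.
MT1B: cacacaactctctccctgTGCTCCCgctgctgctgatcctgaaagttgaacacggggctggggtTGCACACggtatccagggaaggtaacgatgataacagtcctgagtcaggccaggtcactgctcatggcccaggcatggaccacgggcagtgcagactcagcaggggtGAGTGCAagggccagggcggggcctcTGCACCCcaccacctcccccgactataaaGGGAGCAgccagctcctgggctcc
MT2A: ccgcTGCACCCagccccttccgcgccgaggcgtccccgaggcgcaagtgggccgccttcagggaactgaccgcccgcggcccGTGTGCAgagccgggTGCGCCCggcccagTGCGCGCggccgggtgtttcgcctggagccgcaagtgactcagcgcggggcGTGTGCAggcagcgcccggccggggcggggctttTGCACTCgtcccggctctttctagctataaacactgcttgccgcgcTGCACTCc
The MT1B stretch holds 5 matches and the MT2A stretch 7. RefSeq promoters were at hand for 10 of the 13 metal-binding genes measured. At least 1 match occurs in 8 of their 12 promoters (66.7%), against 49.1% of all promoters of this length. Shares for 5 or 7 matches were not computed.

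Among stress genes, the list for unfolded protein and integrated stress responses had a median difference of −0.12 over 44 genes and of 0.04 at equal spread. It had 2 genes of each sign (4.55%) at an unadjusted p under 0.05, against 5.43% positive and 6.14% negative among all genes. With 1 array left out its median ran from −0.22 without linalool replicate 2 to −0.082 without lipid-loaded replicate 1, and the 4 genes became 2 with either 1 of the linalool arrays left out. CALR, the calcium-binding chaperone calreticulin of the endoplasmic reticulum, had −0.68 and −0.34 on the linalool arrays, against 1.11, 1.54 and 0.68 on the lipid-loaded arrays (−1.62, SE 0.32, adjusted p 0.296). ASNS, the asparagine synthetase that ATF4 controls, had 1.74 and 1.73 with linalool, against 1.55, 1.09 and 0.89 in lipid-loaded cells, so its ratios were positive on these 5 arrays, with both linalool ratios above the lipid-loaded ones (0.55, SE 0.39). DDIT3, which encodes the stress factor CHOP, overlapped, at 0.69 and 0.61 with linalool, against 0.65, 0.39 and 0.54 in lipid-loaded cells. The NRF2 targets, 26 genes, had a median difference close to 0, with 1 positive (3.85%, against 5.43% of all genes) and 0 negative at an unadjusted p under 0.05. That 1 gene became 0 with any 1 of the 5 arrays left out other than lipid-loaded replicate 1, and the median ran from −0.10 without lipid-loaded replicate 2 to 0.13 without lipid-loaded replicate 1. At equal spread the median was 0.27, with 6 positive and 0 negative, where 3.55% of all genes were positive, and with quantile normalization it was 0.11, with 4 genes of either sign. SLC7A11, the cystine importer that feeds glutathione synthesis, had 1.16 and 1.48 with linalool, against 0.93, 0.74 and 0.51 in lipid-loaded cells (0.59, SE 0.26). HMOX1, the haem oxygenase of the same programme, had 0.26 and 0.48 with linalool, against 1.14, 0.62 and 0.99 in lipid-loaded cells (−0.55, SE 0.34). The p53 target and apoptosis genes had a median difference of −0.19, which was −0.093 at equal spread and −0.35 without lipid-loaded replicate 3. Negative differences at an unadjusted p under 0.05 numbered 6 of 24 (25%) and positive ones 0, against 6.14% and 5.43% of all genes. Leaving out linalool replicate 1 gave a list median of −0.22, and leaving out linalool replicate 2 gave −0.29. BAX, the pore-forming death effector, had −0.09 and 0.07 with linalool, against 1.32, 1.37 and 1.28 in lipid-loaded cells (−1.34, SE 0.31), and DDB2, a DNA damage sensor, had a difference of −0.89 (SE 0.24).

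Xenobiotic metabolism genes, which handle foreign compounds such as terpenes, had a median difference of 0.05 over 24 genes and of −0.021 at equal spread. Its sign was not stable: the median was −0.19 without linalool replicate 1, −0.048 without lipid-loaded replicate 1 and 0.087 without linalool replicate 2. CYP2S1, a cytochrome P450 found mainly outside the liver, had 1.05 and 0.77 on the linalool arrays, against −1.26, −0.90 and −0.73 on the lipid-loaded arrays (1.87, SE 0.32, adjusted p 0.296). CYP1A1, the classical target of the aryl hydrocarbon receptor, had 0.92 and 1.13 with linalool, against 0.24, −0.62 and 0.23 in lipid-loaded cells (1.08, SE 0.42). SULT2A1, the hepatic sulfotransferase of steroids and bile acids, had −0.36 and −0.32 with linalool, against 0.73, 0.55 and 0.48 in lipid-loaded cells (−0.92, SE 0.24). Both P450 genes named here had positive differences and the sulfotransferase a negative one, with no overlap in any. Over the 24 genes, 2 (8.33%) were positive and 3 (12.5%) negative at an unadjusted p under 0.05, against 5.43% and 6.14% of all genes. Beside SULT2A1, the negative ones were ARNT (−0.67, SE 0.27) and GSTA2 (−0.60, SE 0.26).

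The genes with the smallest p values and a positive difference were led by CYP24A1, the enzyme that inactivates vitamin D. It had 1.13 and 1.77 on the linalool arrays, against −0.65, −0.59 and −0.25 on the lipid-loaded arrays (1.95, SE 0.32, adjusted p 0.296). Over the alternatives run, its adjusted p ranged from 0.132 to 0.587. MEGF10, a phagocytic receptor, had the greatest difference of the 12, 2.18 (SE 0.39), but its linalool arrays were far apart at 0.76 and 2.17, against −1.02, −0.63 and −0.49 on the lipid-loaded arrays. PLEKHG5, a guanine nucleotide exchange factor for RhoA, had 1.02 and 1.30 with linalool, against −0.94, −0.36 and −0.63 in lipid-loaded cells (1.80, SE 0.31). CSF3, the granulocyte growth factor, had 0.14 and 0.48 with linalool, against −1.58, −1.56 and −1.19 in lipid-loaded cells (1.75, SE 0.34). Its lipid-loaded ratios were strongly negative and its linalool ratios close to 0. The other members of these 12, TUSC3, SH3RF1, CBLL2, KRT14, MAP3K5, C14orf119, CYP2S1 and MT1B, had differences from 1.23 to 1.87.

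The 12 genes with the smallest p values and a negative difference include CALR, MVK, TK1, APOA5 and TACC3, described above. UBD, a ubiquitin-like modifier of the interferon response, had −0.90 and −0.78 on the linalool arrays, against 0.95, 0.50 and 0.58 on the lipid-loaded arrays (−1.52, SE 0.26, adjusted p 0.296). DKK1, a secreted inhibitor of Wnt signalling, had −0.64 and −0.59 with linalool, against 1.19, 0.71 and 0.70 in lipid-loaded cells (−1.48, SE 0.26). AOC3, a vascular amine oxidase, had −0.56 and −0.86 with linalool, against 0.75, 0.89 and 0.65 in lipid-loaded cells (−1.47, SE 0.26). In these 3 genes the sign of the ratio itself differed between the groups on every array. GPHA2, ZNF687, AP2B1 and TAAR5 had differences from −1.58 to −1.16.

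**Figure D5:**
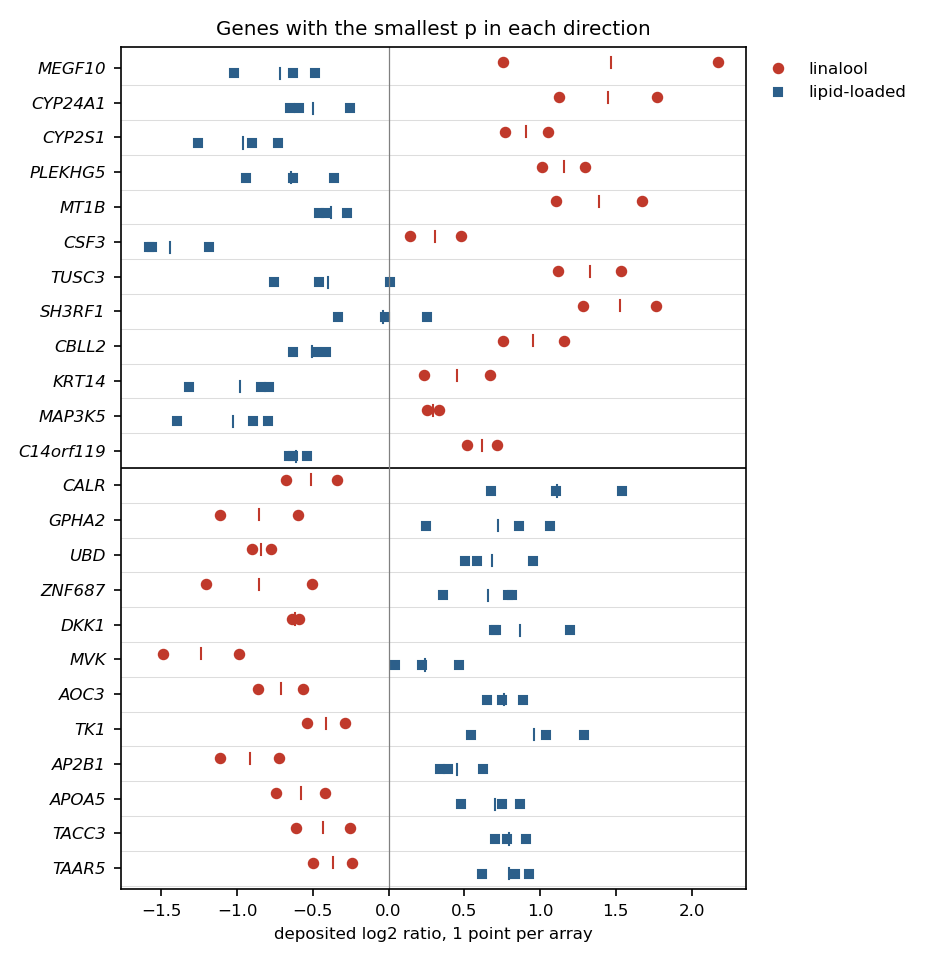
Deposited log2 ratios on each array of the 12 genes with the smallest p and a positive difference (upper block) and the 12 with the smallest p and a negative difference (lower block), with a tick at each group's mean. The groups do not overlap in any of the 24 genes, which were chosen for their difference, and no adjusted p is below 0.296.

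Set against fenofibrate rather than no compound, linalool gave 0 genes (0%) in limma at an adjusted p under 0.05, and 944 (5.02%) had an unadjusted p under 0.05. Without fenofibrate replicate 3, the array that stood apart, 0 were called and 1118 had an unadjusted p under 0.05. The differences against lipid-loaded cells share their control arrays between the compounds, so the values are only set side by side; fenofibrate minus lipid-loaded cells had 0 genes called and 1934 (10.3%) at an unadjusted p under 0.05. PLIN2 had 0.01 and −0.34 with linalool, against 0.93, 0.97 and 0.40 with fenofibrate, a difference of −0.93 (SE 0.27, adjusted p 0.881). CREB3L3 had 0.03 and −0.06 with linalool, against 1.35, 0.98 and 1.27 with fenofibrate, a difference of −1.22 (SE 0.25, adjusted p 0.813). FABP1 had 0.29 and −0.58 with linalool, against 0.99, 0.78 and 0.89 with fenofibrate, and the difference was −1.03 (SE 0.30, adjusted p 0.881). In these 3 genes each linalool array lay below each fenofibrate array. They do not stand for all PPARα targets: the list of 36 such targets and fatty acid oxidation genes had a median of −0.16 in linalool minus fenofibrate. In limma 2 of the 36 had an unadjusted p under 0.05, both negative. PDK4 (0.55, SE 0.37) and VNN1 (0.51, SE 0.30) had the other sign. MVK had −1.49 and −0.99 with linalool, against 0.09, −0.23 and 0.42 with fenofibrate, a difference of −1.33 (SE 0.29, adjusted p 0.813). CBLL2 and SH3RF1 had the lowest adjusted p of this contrast among the named genes, 0.633 for each. The mitosis list was at a median of −0.30 in linalool minus fenofibrate and −0.42 in fenofibrate minus lipid-loaded cells, beside −0.76 in linalool minus lipid-loaded cells.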

How the data were processed

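RNA was measured on 2-colour arrays in 8 samples: 2 linalool, 3 lipid-loaded and 3 fenofibrate. The authors deposited a single matrix of log2 ratios for 29187 probes, with 4 missing values. Per the labels' protocols, 8 µg of RNA was reverse transcribed from oligo(dT) with Cy3 or Cy5, the untreated control in Cy5. Background correction, normalization and the numerator channel are not stated there. The log base follows from the values, since on every array 100% of the values with ratios between 0.2 and 2 were, within 0.0001, the log2 of a 3-decimal ratio shifted by a constant, against 19.5% to 25.6% with the sign turned. No column lacked a sample (0).

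Symbols came from the platform annotation: 25053 probes had 1 symbol, 0 several and 4134 none. Probes were averaged per gene, and of 5376 genes with more than 1 probe, 2105 had probes of opposite sign. R 4.3.3 with limma 3.58.1 (lmFit, eBayes) and the data.table package (1.17.8) fitted all 8 arrays with 1 coefficient per group, two-sided, with Benjamini-Hochberg adjustment over 18819 genes and a threshold of 0.05. The code was tested on simulated data. Scaling to equal spread set each array's median to 0 and its median absolute deviation to the mean over arrays.

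The 32 lists (934 genes, 36 of them in more than 1 list, 843 measured) and the named genes were chosen with earlier results of these data known. Genes were named by smallest p in each direction (12 each), by up to 3 per list and direction, or as preset lipid and stress genes. Alternatives covered the arrays fitted, centring, scaling, probe summary, filtering, array weights, robust estimation, the replicate block and each array left out.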

Additional observations from a re-analysis of the deposited data

How the results depend on the processing

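The number of arrays limits every statement here, and no spot brightness was analysed. Over the 19 alternatives run, 0 genes were called in linalool minus lipid-loaded cells, except without linalool replicate 1 (1 gene). That gene, CCR8, was chosen after its values were seen; it had −0.06 and −2.93 on the linalool arrays, against 0.82, 0.81 and 0.19 on the lipid-loaded arrays, and an adjusted p of 0.019 there, against 0.355 in all arrays. In linalool minus fenofibrate, leaving out 1 array gave 0 to 3 called genes: CCR8, DNAAF8 and ZNF892 without linalool replicate 1, and NOSTRIN without linalool replicate 2 (1 gene). A lone linalool array is assumed to vary like the other groups.

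Genes at an unadjusted p under 0.05 numbered 1269 to 2731 with 1 array left out and 1185 of 9410 with small ratios left out. Genes with linalool above all lipid-loaded arrays numbered 2395 to 4651 with 1 array left out, 3681 over single probes and 1292 with small ratios left out, which left 2671 below. These settings test other numbers of features or arrays (29183 probes, 9410 genes, 1 array fewer), which changes the counts by construction. In linalool minus fenofibrate the genes at an unadjusted p under 0.05 numbered 1506 with quantile normalization, 1701 at equal spread, 1461 over single probes, 1594 with array weights and 519 with small ratios left out; the cause of the higher counts was not tested.

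With quantile normalization and at equal spread, list medians were −0.19 and −0.19 for PPARα targets, −0.017 and −0.054 for droplet genes, 0.0092 and −0.082 for apolipoproteins, and −0.12 and −0.055 for the proteasome. The median was −0.12 for cholesterol genes with quantile normalization, and −0.0545 for oxidative phosphorylation and −0.067 for ribosomal proteins at equal spread. With 1 array left out, medians ranged from −0.27 to −0.091 for apolipoproteins, −0.66 to −0.16 for hepatocyte secreted proteins and −0.71 to −0.48 for glycolysis.

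Of 1676 differences of 94 of the genes named, 1657 kept their sign and their side of the threshold. The other 19 reversed, in 8 genes, none of them called, and the cause was not tested. With quantile normalization and at equal spread, differences were 0.051 and 0.0625 for APOB, 0.12 and 0.0855 for CPT1A, 0.11 and 0.14 for FASN, 0.078 and 0.040 for SCD, and 0.15 and 0.096 for SREBF1, which had 0.032 with array weights. With 1 array left out they ranged from −0.44 to 0.89 for APOA4, −0.15 to 0.057 for CPT1A, −0.49 to 0.81 for PDK4, −0.31 to 0.17 for FASN and −0.074 to 0.12 for SREBF1.

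With the replicate number as a replicate block, 0 genes were called, 2815 had an unadjusted p under 0.05 and the difference of DDIT3 was −0.049. Deviations of same-numbered linalool and lipid-loaded arrays from their group means correlated at r = 0.011 and −0.003. With 2 linalool arrays these deviations mirror each other, so the values cannot settle whether the numbers pair the samples. Between lipid-loaded and fenofibrate arrays, r was 0.14, −0.021 and 0.083 for the same number. For unlike numbers it ran from −0.141 to 0.066.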

Other observations

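Immediate early genes, which respond to signals within minutes to hours, had a median difference of 0.32 over 26 genes, against −0.06 for all genes, and of 0.32 at equal spread. Of the 26, 21 had a positive difference, as did 8448 of the 18819 genes tested. Of the same 26, 9 (34.6%) lay above all lipid-loaded arrays, against 12.7% of all genes. In the limma fit 3 of them (11.5%) had a positive difference at an unadjusted p under 0.05, against 5.43% of all genes. The median was 0.19 without lipid-loaded replicate 1, and the 4 genes of either sign at an unadjusted p under 0.05 became 1 without linalool replicate 2. EGR1, a zinc finger transcription factor of growth signalling, had 0.84 and 1.87 on the linalool arrays, against 0.07, −0.40 and 0.47 on the lipid-loaded arrays (1.30, SE 0.46). CCN1, a matricellular protein, had 0.09 and 0.60 with linalool, against −0.77, −0.25 and −0.32 in lipid-loaded cells (0.79, SE 0.31), and DUSP5, a phosphatase of ERK, had 0.37 and 0.64 with linalool, against −0.02, −0.99 and −0.43 in lipid-loaded cells (0.98, SE 0.37). Linalool replicate 2 was the higher array in all 3 genes. KLF10 was the list's 1 member (3.85%, against 6.14% of all genes) with a negative difference at an unadjusted p under 0.05. It had 0.06 and −0.11 with linalool, against 0.59, 0.64 and 0.57 in lipid-loaded cells (−0.63, SE 0.25). DDIT4, a stress-induced inhibitor of mTORC1, is not in this list but in that for unfolded protein and integrated stress responses. DDIT4 had −0.16 and 0.01 with linalool, against 0.85, 1.16 and 0.41 in lipid-loaded cells (−0.88, SE 0.27).

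Liver enzymes outside lipid handling gave single values of both signs. TAT, the tyrosine aminotransferase induced by glucocorticoids, had 0.75 and 0.80 with linalool, against −0.73, −0.25 and −0.17 in lipid-loaded cells (1.16, SE 0.31). GYS2, liver glycogen synthase, had −0.77 and −0.12 with linalool, against −1.97, −1.33 and −1.51 in lipid-loaded cells (1.16, SE 0.29). FGFR4, the receptor that restrains bile acid synthesis, had −0.25 and −0.02 with linalool, against 0.82, 0.90 and 0.63 in lipid-loaded cells (−0.92, SE 0.25), and BAAT, which conjugates bile acids, had −0.16 and −0.33 with linalool, against 0.90, 0.46 and 0.26 in lipid-loaded cells (−0.78, SE 0.27). FGFR4 and BAAT were the 2 members of the bile acid list (11.1%) with a negative difference at an unadjusted p under 0.05, against 6.14% of all genes. A positive one was had by 3 members (16.7%), against 5.43%: SLC10A1 (0.95, SE 0.36), FGF19 (0.80, SE 0.29) and CYP7B1 (0.71, SE 0.28). The bile acid list as a whole had a median of 0.05 over 18 genes. Where 1 array was left out, it ran from 0.058 without lipid-loaded replicate 1 to 0.18 without linalool replicate 2.

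Markers of stromal, endothelial, blood, neural and epithelial cells had a median difference of 0.23 over 28 genes, and 0.13 at equal spread. Their median ratio was −0.18 and 0.01 on the linalool arrays, against −0.55, −0.34 and −0.33 on the lipid-loaded arrays. Of the 28, 19 had a positive and 9 a negative difference, 8 (28.6%) lay above all lipid-loaded arrays, against 12.7% of all genes, and 3 (10.7%) had a positive difference at an unadjusted p under 0.05, against 5.43% of all genes: CD14 (1.10, SE 0.25), ADIPOQ (1.66, SE 0.52) and COL1A1 (1.04, SE 0.40). The negative differences included ACTA2 (−0.63, SE 0.37), CD68 (−0.38, SE 0.40) and EPCAM (−0.32, SE 0.26). The list's median was 0.40 without linalool replicate 1, and the 3 genes became 1 without linalool replicate 2 and 5 without lipid-loaded replicate 3. The cells are a single line and the files hold no levels, so these ratios carry no statement on expression of the markers.

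Over the whole table, 706 genes (3.75%) had both linalool arrays above all 6 other arrays of the series and 1237 (6.57%) had both below them.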
